A study of Mus musculus with 34 samples.

Results

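Sections of the primitive streak from homozygous Evx1as-/- mouse embryos were compared with streak sections from heterozygous Evx1as+/- embryos. The 11 sections, of 34 samples in the series, were chosen by their genotype and cell type label, and sections whose title and label named different regions were left out. The homozygous group held 5 sections, numbered as layers 1, 5, 7, 9 and 11. The heterozygous group held 6, numbered as layers 1, 3, 5, 7, 9 and 11. All came from C57/B6 embryos at embryonic day 7, were captured by laser from cryosections and were amplified by Geo-seq, a protocol that makes RNA-seq libraries from small captured regions. Every group carries an altered Evx1as allele, since the heterozygous embryos hold 1 altered and 1 unaltered copy, and no wild-type streak section was analysed here. The labels do not say how the allele was made, which end of the streak layer 1 marks, or which section came from which embryo. Sections of a genotype may share an embryo, so every p-value below, which treats sections as independent, is then too small. Genotype, embryo and the exact stage of each embryo cannot be told apart.

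The primitive streak is the posterior strip of the gastrulating embryo through which epiblast cells leave the epithelium to become mesoderm and endoderm. NODAL, WNT, BMP and FGF signals set it up. Its anterior end gives rise to the node and definitive endoderm under high NODAL signalling and EOMES, while its posterior and later cells depend on WNT3A, FGF and brachyury and turn on caudal, HOX and presomitic genes. Evx1as is a long non-coding RNA made from the strand opposite Evx1, a homeobox gene of the posterior streak.

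The sections carried streak markers. The summed level of 8 streak markers (T, Mixl1, Eomes, Fgf8, Wnt3, Nodal, Tdgf1 and Sp5) was 358 to 718 FPKM in homozygous sections and 357 to 649 FPKM in heterozygous sections. FPKM is the number of fragments per kilobase of a transcript relative to all mapped fragments in that library. Layer 1 of both genotypes also carried node and endoderm markers, with a sum of 148 FPKM over Foxa2, Chrd, Noto, Shh and Sox17 in the homozygous section and 390.4 FPKM in the heterozygous one. Visceral endoderm markers, from the layer that covers the epiblast, summed to 601 FPKM over 8 genes in homozygous layer 11, where all 8 reached 1 FPKM. In the other homozygous sections this sum was 0.354 to 44.4 FPKM, and in the heterozygous sections 1.59 to 25.7 FPKM. Nascent mesoderm markers summed to 22.8 to 92.2 FPKM over 6 genes in homozygous and 17.3 to 90.3 FPKM in heterozygous sections. Blood markers summed to at most 1.13 FPKM in homozygous and 2.99 FPKM in heterozygous sections. Anterior epiblast or neural markers summed to 6.07 to 55.6 FPKM over 6 genes in homozygous and 3.30 to 9.79 FPKM in heterozygous sections. Otx2 made up 45.7 FPKM of the highest of these, in homozygous layer 1. The sum of 5 extraembryonic ectoderm markers was 32.4 and 38.7 FPKM in homozygous layers 1 and 11 and 39.8 FPKM in heterozygous layer 1. Elsewhere it was at most 12.4 FPKM. Heterozygous layer 11 stood apart as a library, with 6806 genes at 1 FPKM or more, against 9488 to 10559 in the homozygous sections and 8580 to 10959 in the other heterozygous ones. The tables used here hold no read counts, so sequencing depth is unknown.

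Evx1as itself was low in both groups. It was at 0.0547, 0, 0, 0.159 and 0 FPKM in homozygous layers 1, 5, 7, 9 and 11, and at 0, 0.0512, 4.57, 1.71, 0.287 and 0.640 FPKM in heterozygous layers 1, 3, 5, 7, 9 and 11. No homozygous section reached 1 FPKM, while heterozygous layers 5 and 7 did, and the groups overlapped at the low end. The difference in mean log2(FPKM + 1) was -0.79, with a two-sided exact permutation p of 0.0931 over the 462 relabellings of 11 sections. Without heterozygous layer 1 that difference was -0.96 (exact permutation p = 0.0238), and without heterozygous layer 3 it was -0.94 (p = 0.0476). Without heterozygous layer 5, its highest section, the difference was -0.46 (exact permutation p = 0.119). Evx1 was at 0.278, 0, 1.55, 3.32 and 4.74 FPKM in the homozygous layers and at 0, 1.14, 4.38, 0.915, 6.85 and 7.05 FPKM in the heterozygous ones. It was listed at 0 in homozygous layer 5 and heterozygous layer 1 and was highest in layer 11 of both genotypes. The difference was -0.47 on the log2 scale (exact permutation p = 0.491), and it ran from -0.82 without heterozygous layer 1 to -0.16 without homozygous layer 5. In the tables, which use the genome build mm10, Evx1as (5730457N03Rik, ENSMUSG00000086126.1) spans 52308389 to 52314832 of chromosome 6 on the minus strand, and Evx1 (ENSMUSG00000005503.8) spans 52313498 to 52318378 on the plus strand. The sources used here do not say if counting was stranded, so reads from the stretch they share cannot be assigned to either gene.

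The start of each of these genes lies inside the other, which is why the bases before both starts are shown, from RefSeq on GRCm38.p6, the assembly of mm10. In the first, the capitals mark 194 bases, 52313304 to 52313497, that GENCODE M21 places in an exon of Evx1as (listed there as Evx1os), read on the Evx1 strand. The second lies in an intron of Evx1.
Evx1, chr6:52313248-52313497, plus strand: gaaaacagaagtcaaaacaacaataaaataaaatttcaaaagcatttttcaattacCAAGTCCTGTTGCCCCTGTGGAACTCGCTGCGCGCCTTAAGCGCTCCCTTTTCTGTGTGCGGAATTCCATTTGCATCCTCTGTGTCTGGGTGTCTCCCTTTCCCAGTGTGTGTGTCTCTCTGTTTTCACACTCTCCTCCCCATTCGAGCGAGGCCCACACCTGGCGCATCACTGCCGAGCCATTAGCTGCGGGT
Evx1as, chr6:52314833-52315082, minus strand: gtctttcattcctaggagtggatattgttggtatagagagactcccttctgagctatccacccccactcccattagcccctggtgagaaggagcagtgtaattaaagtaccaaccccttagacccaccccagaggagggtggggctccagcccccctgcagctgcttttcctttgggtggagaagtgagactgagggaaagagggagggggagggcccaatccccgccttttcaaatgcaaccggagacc

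Across all genes, Hes7 and Nkx1-2 fell in the homozygous streak in the main fit. T joined them once libraries were scaled to each other. These calls depended on the fit. Hes7 encodes an oscillating repressor of presomitic mesoderm downstream of NOTCH, and Nkx1-2 a homeobox factor of the caudal epiblast. Of the 9932 genes that averaged 1 FPKM or more, these 2 (0.0201%) fell, and 0 (0.0%) rose, at a Benjamini-Hochberg (BH) adjusted p under 0.05 in limma on log2(FPKM + 1) with layer as a covariate. With layer as a block in place of a number no gene passed, as deposited or after scaling. None passed either with no filter on low values or with a filter at 5 FPKM. At an unadjusted p under 0.05 in the main fit, 898 genes (9.04%) were higher and 114 (1.15%) lower. The median log2 change over the genes tested was 0.25. Median-ratio scaling of the libraries brought that median to 0.05 and the unadjusted counts to 602 higher and 393 lower. Without heterozygous layer 11, unscaled, they were 553 and 228 of 10053 genes. The imbalance between higher and lower genes thus depended on scaling and on that library. After the scaling 0 genes rose and 8 (0.0805%) fell at the adjusted threshold: T, Hes7, Nkx1-2, Hoxb1, Hoxb2, Crabp2, mt-Rnr1 and mt-Rnr2. With library totals rescaled without Yam1, an abundant RNA, and the mitochondrially encoded genes, 0 rose and 3 (0.0302%) fell, T, Hes7 and Nkx1-2, so that the other 5 passed under the first scaling and not under the second. In these captured pieces, fewer cells of a type and less RNA per cell cannot be told apart.

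Hes7 (ENSMUSG00000023781.2, chromosome 11, 69120404 to 69124055) was at 0, 0.0731, 0, 0 and 0.0799 FPKM in homozygous layers 1, 5, 7, 9 and 11, against 2.89, 11.3, 32.1, 6.73, 10.1 and 5.70 FPKM in heterozygous layers 1, 3, 5, 7, 9 and 11. It was at or near 0 in every homozygous section and present in every heterozygous one, with no overlap. It fell by 3.27 ± 0.44 (SE) on the log2 scale, with a limma BH-adjusted p of 0.0255. The adjusted p ran between 0.00126 and 0.529 over 23 alternative fits, and 11 of them called it. Among the 11 fits that each left out 1 section, 4 called it: those without heterozygous layers 1, 5 or 11 and without homozygous layer 9. Nkx1-2 (ENSMUSG00000048528.7, chromosome 7, 132594878 to 132599637) was at 0.194, 0, 0.553, 2.82 and 2.32 FPKM in the homozygous layers, against 2.37, 11.1, 14.1, 7.51, 11.2 and 11.7 FPKM in the heterozygous ones. Every homozygous section lay below its heterozygous counterpart of the same layer, and heterozygous layer 1 overlapped the highest homozygous section. Nkx1-2 fell by 2.45 ± 0.37 (SE; limma adjusted p = 0.0428, between 0.00969 and 0.529 over 23 alternatives, 7 of which called it). Of the 11 fits without 1 section, 3 called it, those without heterozygous layers 1 or 11 and without homozygous layer 9.

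T (brachyury, ENSMUSG00000062327.10, chromosome 17, 8434423 to 8442496), the T-box factor that defines the streak, was present in every section of both groups. Its level was 72.0, 51.1, 63.0, 105 and 50.8 FPKM in homozygous layers 1, 5, 7, 9 and 11, against 263, 162, 295, 297, 239.8 and 133 FPKM in heterozygous layers 1, 3, 5, 7, 9 and 11. The groups did not overlap. The deposited interval of the highest homozygous value reached up to 112 FPKM and that of the lowest heterozygous value down to 124 FPKM. The log2 change was -1.72 ± 0.30 (SE; limma unadjusted p = 3.73e-05, adjusted p = 0.0925). After scaling it fell by 2.01 (adjusted p = 0.00119, between 0.00119 and 0.618 over 23 alternatives, 5 of which called it). The exact permutation p of T alone was 0.00216, the smallest that 462 relabellings can give. T was 1 of 10 genes (0.101% of those tested) that were lower in every homozygous section than in any heterozygous one, against 74 (0.745%) that were higher.

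**Figure D1:**
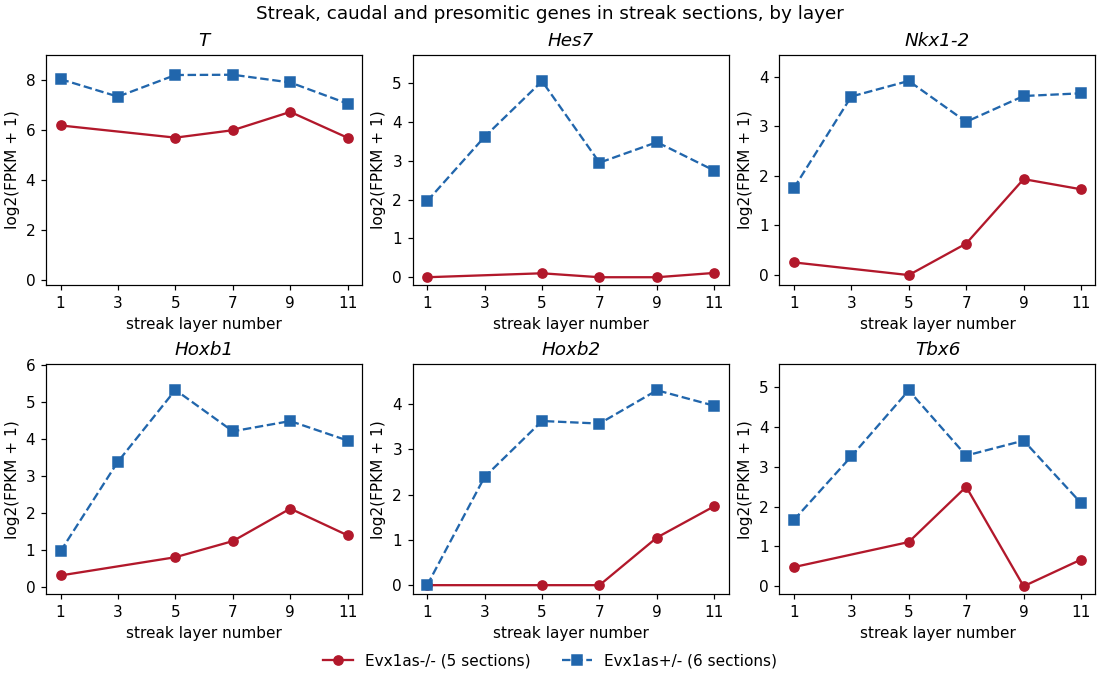
Level of 6 streak, caudal and presomitic genes, as log2(FPKM + 1), against streak layer number in 5 Evx1as-/- sections (red circles, solid lines) and 6 Evx1as+/- sections (blue squares, dashed lines), each point being 1 section. T and Hes7 do not overlap between the genotypes, while Hoxb1, Hoxb2 and Tbx6 are low at layer 1 in both and lie further apart at layer 5.

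The bases before the starts of T, Hes7 and Nkx1-2, which fell as deposited or after scaling, are shown as the regulatory sequence of the genes that lead the comparison. The Hes7 stretch stops where its annotated transcript begins. It overlaps an exon of the antisense transcript 9130213A22Rik, and the Nkx1-2 stretch lies in an intron of the annotated span of Fgfr2. Windows from 250 bases before to 50 after the start were searched on both strands for a T-box core, TCACACC, and for the TCF/LEF words CTTTGAT or CTTTGAA. The capitals in T mark the match found among these 3 windows, CTTTGAA on the minus strand, beginning 235 bases before the start. Of 32851 RefSeq promoter windows of the same length, 8.65% held a TCF/LEF word and 3.98% the T-box core. A match describes these letters and shows no binding.
T, chr17:8434173-8434422, plus strand: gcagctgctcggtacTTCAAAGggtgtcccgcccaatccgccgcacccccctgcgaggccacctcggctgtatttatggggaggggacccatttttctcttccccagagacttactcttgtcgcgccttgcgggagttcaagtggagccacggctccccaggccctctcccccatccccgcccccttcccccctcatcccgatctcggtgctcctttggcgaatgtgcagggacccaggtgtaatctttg
Hes7, chr11:69120203-69120403, plus strand: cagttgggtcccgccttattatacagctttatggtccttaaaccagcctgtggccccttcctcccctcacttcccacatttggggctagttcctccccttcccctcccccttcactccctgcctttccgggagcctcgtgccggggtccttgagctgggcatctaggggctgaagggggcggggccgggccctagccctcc
Nkx1-2, chr7:132599638-132599887, minus strand: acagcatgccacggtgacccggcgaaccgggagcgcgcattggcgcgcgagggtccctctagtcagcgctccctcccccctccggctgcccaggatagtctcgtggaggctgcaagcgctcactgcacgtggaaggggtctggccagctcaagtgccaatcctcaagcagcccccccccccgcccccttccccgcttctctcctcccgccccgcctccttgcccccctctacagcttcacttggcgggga

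The anterior HOX genes of the B cluster, which give early posterior identity, were lower as well. Of 39 HOX genes listed, only Hoxb1 and Hoxb2 reached a mean of 1 FPKM. Hoxb1 was at 0.238, 0.745, 1.36, 3.35 and 1.63 FPKM in homozygous layers 1, 5, 7, 9 and 11, against 0.950, 9.50, 39.4, 17.6, 21.5 and 14.6 FPKM in heterozygous layers 1, 3, 5, 7, 9 and 11. It was low in layer 1 of both genotypes and higher in the heterozygous section at each of the 5 shared layers. Its log2 change was -2.67 ± 0.50 as deposited (limma adjusted p = 0.160) and it fell by 2.87 after scaling (adjusted p = 0.0465, between 0.00583 and 0.623 over 23 alternatives). Hoxb2 was listed at 0 in homozygous layers 1, 5 and 7 and at 1.07 and 2.35 FPKM in layers 9 and 11, against 0, 4.24, 11.3, 10.9, 18.8 and 14.6 FPKM in the heterozygous layers. Its log2 change was -2.58 ± 0.44 as deposited (adjusted p = 0.0925) and it fell by 2.75 after scaling (adjusted p = 0.0380, between 0.00234 and 0.623). Both homozygous values above 0 lay in the 2 highest-numbered layers.

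Several other caudal and presomitic genes had lower values, and of those named here Crabp2 alone passed, after scaling. Wnt3a, the WNT ligand of the posterior streak, was at 0.349, 3.63, 3.06, 6.00 and 2.88 FPKM in the homozygous layers, against 5.10, 12.1, 19.4, 9.37, 11.0 and 3.88 FPKM in the heterozygous ones (log2 change -1.47, limma adjusted p = 0.341). Tbx6, which directs cells to paraxial mesoderm, was at 0.395, 1.16, 4.64, 0 and 0.591 FPKM, against 2.16, 8.57, 29.2, 8.71, 11.6 and 3.25 FPKM in the heterozygous layers (-2.20, adjusted p = 0.247). Cdx1, a regulator of HOX genes, was at 0.835 to 4.94 FPKM in homozygous sections, with a median of 1.42, and at 0.678 to 15.1 FPKM in heterozygous ones, with a median of 7.94 (-1.51, adjusted p = 0.263). Wnt3a and Tbx6 were lower in the homozygous section at all 5 shared layers, as were 169 genes (1.70%), and Cdx1 at 4. Crabp2, a carrier of retinoic acid, was at 0 to 3.69 FPKM in homozygous sections, against 2.37 to 7.42 FPKM in heterozygous ones. It fell by 1.91 after scaling (adjusted p = 0.0408, between 0.0408 and 0.623 over 22 alternatives), with -1.73 and an adjusted p of 0.160 as deposited.

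The NOTCH ligands of presomitic mesoderm lay closer together between the genotypes. Dll1 was at 0.0438 to 3.89 FPKM in homozygous and 1.10 to 13.0 FPKM in heterozygous sections, with a log2 change of -0.79 (limma adjusted p = 0.592). Dll3 was at 0.674 to 2.22 FPKM in homozygous and 0.103 to 6.93 FPKM in heterozygous sections (-0.82, adjusted p = 0.531). Hes1, another NOTCH-responsive repressor, ran the opposite way to Hes7 outside layer 1. It was at 17.7, 6.73, 7.98, 7.98 and 5.73 FPKM in the homozygous layers, against 21.2, 1.67, 0.826, 0.584, 0.779 and 0.782 FPKM in the heterozygous ones. Its log2 change was 1.87 (adjusted p = 0.247). It passed, higher, when heterozygous layer 1 was left out. Mesp2, which acts at segment boundaries of presomitic mesoderm, was at 0.344, 6.66, 6.18, 9.00 and 5.22 FPKM in the homozygous layers, against 0, 1.85, 4.08, 1.13, 4.84 and 0 FPKM in the heterozygous ones, higher at all 5 shared layers (1.11, adjusted p = 0.505). In the caudal list 15 of 19 genes were tested, of which 1 was higher and 5 lower at an unadjusted p under 0.05. The shares over all genes were 9.04% and 1.15%. The list had 3 positive and 12 negative log2 changes and a median of -0.48, against 0.25 for all genes. In the presomitic and NOTCH list 8 of 19 genes were tested, with 1 higher and 2 lower, 4 positive and 4 negative changes, and a median of -0.24. Under the adjusted threshold 1 gene of each list fell, Nkx1-2 and Hes7, and after scaling the caudal list had 3, with Hoxb1 and Hoxb2.

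Several early streak genes had higher values in homozygous sections, and none of them passed the test. Eomes, a T-box factor needed for endoderm and early mesoderm, was at 56.1, 49.1, 56.6, 59.9 and 20.2 FPKM in homozygous layers 1, 5, 7, 9 and 11, against 11.1, 23.6, 19.4, 15.7, 17.5 and 2.73 FPKM in heterozygous layers 1, 3, 5, 7, 9 and 11. The groups overlapped only through homozygous layer 11, the lowest of its group. The log2 change was 1.82 ± 0.41 (limma unadjusted p = 0.000512, adjusted p = 0.216). Fgf8, the growth factor that cells need to leave the streak, was at 18.5, 25.9, 23.7, 37.6 and 13.1 FPKM, against 10.1, 10.9, 7.64, 4.65, 1.26 and 5.78 FPKM in the heterozygous layers. Its groups did not overlap (log2 change 1.84 ± 0.40, adjusted p = 0.172). None of the 23 alternatives called either gene.

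Mixl1, a homeobox gene of mesendoderm, was at 209, 233, 280.3, 170.3 and 139 FPKM in the homozygous layers, against 3.56, 56.0, 110.4, 42.7, 175 and 179.9 FPKM in the heterozygous ones (log2 change 1.66, limma adjusted p = 0.447). The genotypes were far apart at layer 1 and reversed in order at layers 9 and 11. Tdgf1, the NODAL co-receptor CRIPTO, was at 289, 192, 245, 126.44 and 105 FPKM, against 50.4, 92.6, 173, 68.1, 112 and 16.8 FPKM in the heterozygous layers (1.44, adjusted p = 0.341). Nodal itself was low, at 2.09 to 5.52 FPKM in homozygous sections, with a median of 5.00, and 0 to 12.8 FPKM in heterozygous ones, with a median of 2.62 (0.91, adjusted p = 0.489). Skil, a NODAL-induced SMAD repressor, was at 6.54 to 16.8 FPKM in homozygous and 1.87 to 10.3 FPKM in heterozygous sections (1.17, adjusted p = 0.369). Of the 16 NODAL pathway genes tested 7 were higher and 0 lower at an unadjusted p under 0.05, against 9.04% and 1.15% of all genes. The list had 10 positive and 6 negative log2 changes and a median of 0.32, near the 0.25 of all genes. After scaling that median was 0.18, against 0.05 for all genes. Lefty2, a NODAL antagonist, had the lowest change of the list, -1.13.

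**Figure D2:**
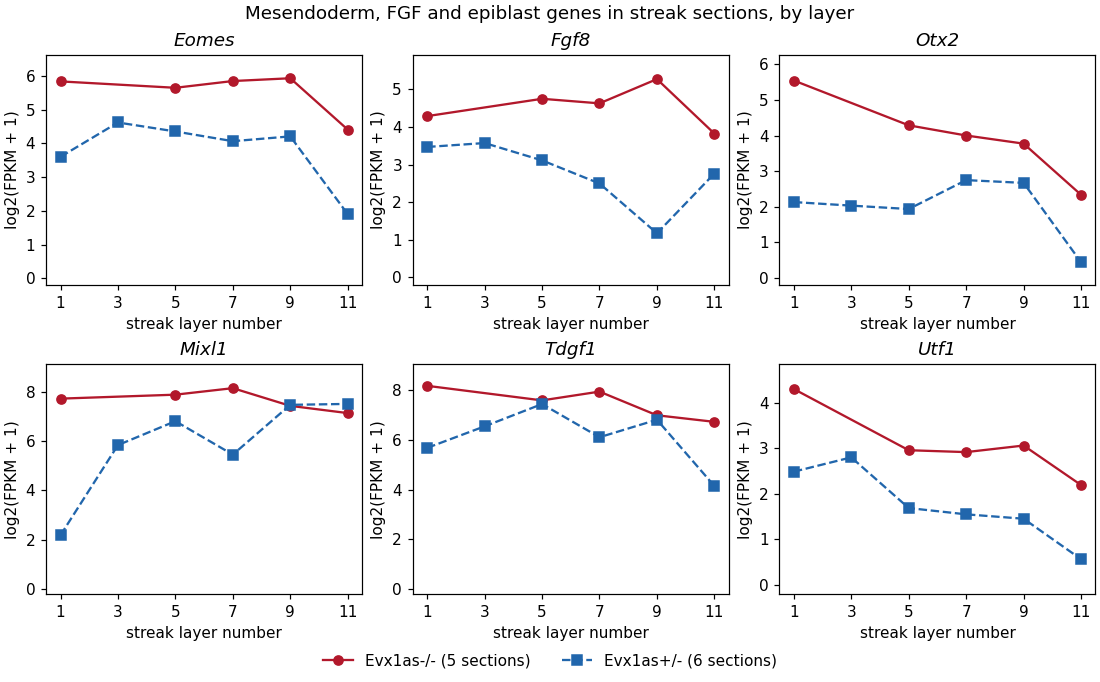
Level of 6 mesendoderm, FGF and epiblast genes, as log2(FPKM + 1), against streak layer number in 5 Evx1as-/- sections (red circles, solid lines) and 6 Evx1as+/- sections (blue squares, dashed lines), each point being 1 section. Eomes, Fgf8, Otx2, Tdgf1 and Utf1 are higher in the homozygous section at all 5 shared layers, and Mixl1 at layers 1, 5 and 7.

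Several genes of the anterior streak and organizer had higher values without passing. In layer 1 the order of the genotypes depended on which genes were summed. The 5 node and endoderm markers above were lower in the homozygous section, at 148 against 390.4 FPKM. All 18 genes of the organizer and endoderm list summed to 763 FPKM there, against 673 FPKM in heterozygous layer 1. Otx2, a homeobox gene of anterior tissue and the early epiblast, was at 45.7, 18.5, 15.0, 12.7 and 4.04 FPKM in the homozygous layers, against 3.38, 3.09, 2.82, 5.72, 5.36 and 0.357 FPKM in the heterozygous ones (log2 change 2.10 ± 0.42, limma adjusted p = 0.160). Homozygous values declined with layer number, and only layer 11 fell within the heterozygous range. Lhx1, a LIM homeobox gene of the organizer, was at 90.2, 13.6, 11.4, 9.36 and 7.05 FPKM, against 26.967, 1.75, 6.75, 2.15, 2.30 and 1.63 FPKM in the heterozygous layers (1.92, adjusted p = 0.247). Gsc, the organizer gene goosecoid, was at 21.2, 2.24, 3.18, 1.86 and 0 FPKM, against 0.712, 0, 0.164, 0, 0 and 0 FPKM in the heterozygous layers (1.91, adjusted p = 0.247). Foxa2, of the node and endoderm, was at 64.7 FPKM in homozygous and 68.7 FPKM in heterozygous layer 1. In the higher layers it was at 0.116 to 9.33 FPKM in homozygous and 0 to 0.524 FPKM in heterozygous sections (1.19, adjusted p = 0.596). In the organizer and endoderm list 14 genes were tested, of which 5 were higher and 0 lower at an unadjusted p under 0.05. The shares over all genes were 9.04% and 1.15%. The list had 10 positive and 4 negative changes. Its median was 0.39, or 0.36 after scaling, against 0.25 and 0.05 for all genes. Nog, a BMP antagonist of the node, had the lowest change of the list, -0.97.

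The core streak list held differences in both directions. Of its 18 genes, all tested, 7 were higher at an unadjusted p under 0.05 (Eomes, Fgf8, Lhx1, Gsc, Tdgf1, Mixl1 and Nodal) and 2 lower (T and Wnt3a). Over all genes the shares were 9.04% and 1.15%. The median log2 change of the list was 0.64, against 0.25 for all genes, and after scaling T alone passed, lower. Some members hardly differed. Sp5, a direct WNT target, was at 15.0 to 25.3 FPKM in homozygous and 10.1 to 39.8 FPKM in heterozygous sections (log2 change -0.08 ± 0.32, limma adjusted p = 0.938), and its sign turned in several alternative fits. The ratio of Eomes to T within each library does not depend on how libraries are scaled. It was 0.779, 0.962, 0.898, 0.569 and 0.398 in homozygous layers 1, 5, 7, 9 and 11, against 0.0423, 0.146, 0.0658, 0.0529, 0.0728 and 0.0206 in heterozygous layers 1, 3, 5, 7, 9 and 11. The lowest homozygous ratio lay above the highest heterozygous one. The pair was chosen after its values were seen, so the ratio is given with no test.

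**Figure D3:**
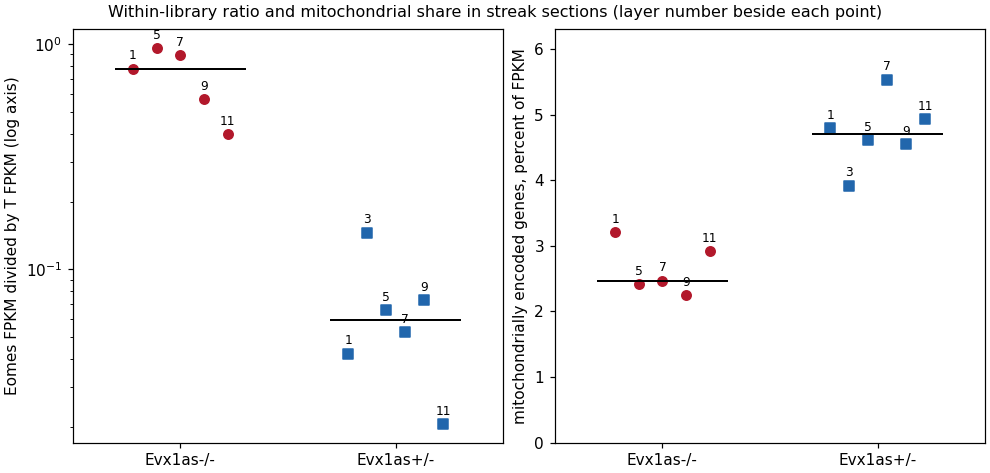
Left, Eomes FPKM divided by T FPKM on a log axis, and right, the percent of summed FPKM in mitochondrially encoded genes, for 5 Evx1as-/- sections (red circles) and 6 Evx1as+/- sections (blue squares). Each point is 1 section with its layer number and the bar is the group median. The ratios are 0.398 to 0.962 in homozygous and 0.0206 to 0.146 in heterozygous sections, and neither measure overlaps between the genotypes.

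Signalling genes other than these were mixed. Of 18 WNT ligands and targets tested, 2 were higher and 4 lower at an unadjusted p under 0.05, against 9.04% and 1.15% of all genes. Their median log2 change was -0.24, and only T passed, lower, after scaling. Wnt3, the ligand that starts the streak, was at 5.32, 22.5, 23.2, 24.1 and 12.7 FPKM in homozygous layers 1, 5, 7, 9 and 11, against 3.14, 13.0, 11.0, 13.0, 14.2 and 4.57 FPKM in heterozygous layers 1, 3, 5, 7, 9 and 11. Its order was the opposite of that of Wnt3a at all 5 shared layers, as for 628 genes (6.32%) that were higher in the homozygous section at each (log2 change 0.73, limma adjusted p = 0.566). Axin2, a feedback inhibitor and WNT target, overlapped fully, at 0.437 to 2.81 FPKM in homozygous and 0.472 to 3.31 FPKM in heterozygous sections (-0.23, adjusted p = 0.836).

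FGF ligands differed among themselves. Fgf17 was at 2.32 to 6.18 FPKM in homozygous and 0 to 3.03 FPKM in heterozygous sections (log2 change 1.39, limma adjusted p = 0.310). Fgf5, an epiblast ligand, was at 3.10 to 60.5 FPKM in homozygous and 0.431 to 47.4 FPKM in heterozygous sections, highest in layer 1 of both (1.23, adjusted p = 0.324). Fgf4 lay the other way, at 0.315 to 5.59 FPKM in homozygous and 0 to 23.8 FPKM in heterozygous sections (-1.15, adjusted p = 0.605). The feedback inhibitor Spry2 was at 17.5, 34.5, 46.8, 50.5 and 20.2 FPKM in the homozygous layers, against 27.8, 80.3, 127, 124.83, 149.8 and 62.6 FPKM in the heterozygous ones (-1.45, adjusted p = 0.310). Its values were lower at all 5 shared layers, while those of Fgf8 were higher. Of 17 FGF pathway genes tested 3 were higher and 1 lower at an unadjusted p under 0.05, against 9.04% and 1.15% of all genes. The median of the list was 0.04, against 0.25 for all genes.

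In the BMP pathway, 3 of 10 genes tested were higher and 0 lower at an unadjusted p under 0.05, against 9.04% and 1.15% of all genes. The median log2 change was 0.40, or 0.19 after scaling, against 0.25 and 0.05 for all genes. Smad1, a transducer of BMP signals, was at 6.51, 9.22, 9.52, 10.9 and 5.73 FPKM in the homozygous layers, against 3.22, 1.92, 2.56, 4.14, 2.35 and 1.54 FPKM in the heterozygous ones, without overlap (1.39 ± 0.29, limma adjusted p = 0.172). The BMP target Id1 was at 8.22 to 81.6 FPKM in homozygous and 2.27 to 21.4 FPKM in heterozygous sections (1.38, adjusted p = 0.341). Id3, another BMP target, was at 20.6 to 67.5 FPKM in homozygous and 10.6 to 44.5 FPKM in heterozygous sections (0.96, adjusted p = 0.470). Among 10 nascent mesoderm genes tested, 1 was higher, Mixl1, and 1 lower, Tbx6, at an unadjusted p under 0.05. Over all genes the shares were 9.04% and 1.15%. The median of that list was 0.23, or 0.03 after scaling, against 0.25 and 0.05 for all genes. Mesp1, the early mark of migrating mesoderm, was at 0.427 to 71.0 FPKM in homozygous and 2.41 to 68.3 FPKM in heterozygous sections (0.56, adjusted p = 0.782), and this difference turned to -0.24 without heterozygous layer 11.

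Several pluripotency genes that the epiblast carries into the streak had higher values in homozygous sections, and none passed. Pou5f1 (OCT4) was at 120.1, 121, 155, 200.1 and 104 FPKM in homozygous layers 1, 5, 7, 9 and 11, against 75.3, 98.7, 103, 54.9, 58.3 and 33.3 FPKM in heterozygous layers 1, 3, 5, 7, 9 and 11. The groups did not overlap, by a margin of about 1 FPKM (log2 change 1.07 ± 0.30, limma adjusted p = 0.310). Utf1, an OCT4 and SOX2 target, was at 18.7, 6.76, 6.54, 7.33 and 3.57 FPKM, against 4.60, 5.96, 2.22, 1.93, 1.74 and 0.482 FPKM in the heterozygous layers (1.44 ± 0.28, adjusted p = 0.160). Nanog was at 8.86 to 35.3 FPKM in homozygous and 3.59 to 12.9 FPKM in heterozygous sections (1.23, adjusted p = 0.341). It belongs to a naive pluripotency list with 4 genes tested, 2 with positive and 2 with negative changes. The median of that list was 0.15, or -0.03 after scaling, and Fgf4 had its lowest change, -1.15. Of 16 epiblast genes tested 8 were higher and 0 lower at an unadjusted p under 0.05, against 9.04% and 1.15% of all genes. The epiblast median of 0.81 was 0.57 after scaling, against 0.25 and 0.05 for all genes.

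**Figure D4:**
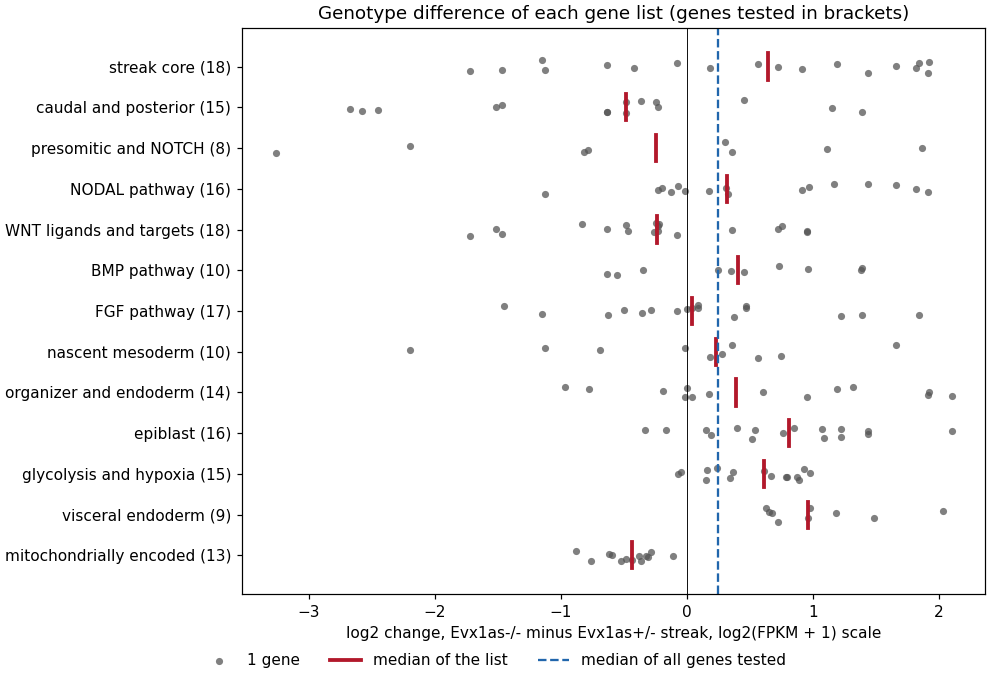
Log2 change, Evx1as-/- minus Evx1as+/- streak on the log2(FPKM + 1) scale, of each gene tested in 13 lists, with the number tested in brackets. Each grey point is 1 gene, the red bar is the median of the list, and the dashed blue line is the median of all 9932 genes, 0.25. The caudal list has a median of -0.48 and the epiblast list 0.81, with points on both sides of 0 in each.

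Several growth and metabolic genes were higher in homozygous sections, none past the threshold. Mycl was at 4.08 to 10.8 FPKM in homozygous and 0.947 to 3.01 FPKM in heterozygous sections, without overlap (log2 change 1.59 ± 0.31, limma adjusted p = 0.160). Myc was at 9.43 to 26.6 FPKM in homozygous and 0.371 to 9.68 FPKM in heterozygous sections (1.83, adjusted p = 0.263). Cdkn1a, the cell cycle inhibitor p21, lay the other way, at 0.439, 5.24, 3.72, 12.3 and 11.7 FPKM in the homozygous layers, against 11.0, 16.6, 11.5, 9.19, 29.3 and 24.9 FPKM in the heterozygous ones (-1.62, adjusted p = 0.247). Of 15 glycolysis and hypoxia genes tested 5 were higher and 0 lower at an unadjusted p under 0.05, against 9.04% and 1.15% of all genes. The median of the list was 0.61, or 0.35 after scaling, against 0.25 and 0.05 for all genes. The glycolytic enzyme gene Pgam1 was at 119 to 179 FPKM in homozygous and 34.974 to 117 FPKM in heterozygous sections (0.93, adjusted p = 0.441). Tpi1 was at 113 to 201 FPKM in homozygous and 41.1 to 93.2 FPKM in heterozygous sections (0.98, adjusted p = 0.310), and is uncertain because the near-identical copy Tpi-rs11 can share its reads.

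Some genes outside the groups above were picked because their values did not overlap: Rln3, Supt16, Bpnt1, Cdv3, Npm3, Adss and Schip1. Their separation is therefore no added result. Of all genes tested, 74 (0.745%) were higher and 10 (0.101%) lower without overlap. Rln3, which encodes a relaxin-family peptide, was at 3.03 to 7.47 FPKM in homozygous sections, against 0 to 2.11 FPKM in heterozygous ones (log2 change 1.87, limma adjusted p = 0.182). Supt16, a subunit of the histone chaperone FACT, was at 26.7 to 48.0 FPKM in homozygous and 9.81 to 23.1 FPKM in heterozygous sections (1.20, adjusted p = 0.247). Bpnt1, Cdv3, Npm3 and Adss had log2 changes of 1.26, 1.35, 1.16 and 1.29, each at an adjusted p of 0.247. Of the lower genes, Schip1 was at 6.19 to 18.0 FPKM in homozygous and 20.5 to 40.1 FPKM in heterozygous sections (-1.23, adjusted p = 0.276). Zeb2, a repressor of E-cadherin in mesenchymal transition, was at 0.0987 to 2.06 FPKM in homozygous and 2.07 to 4.05 FPKM in heterozygous sections (-0.95, adjusted p = 0.386). Only the narrow gap between 2.06 and 2.07 FPKM kept its groups apart. Cxcl12 and Ifitm1 overlapped between the genotypes. Cxcl12, the ligand of CXCR4, was at 1.43 to 6.32 FPKM in homozygous and 0 to 1.69 FPKM in heterozygous sections (1.57, adjusted p = 0.247). Ifitm1, a membrane protein gene of the posterior epiblast, was at 16.8 to 99.7 FPKM in homozygous and 37.2 to 223 FPKM in heterozygous sections (-1.18, adjusted p = 0.473).

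Visceral endoderm genes were uneven across the homozygous sections. All 9 members tested had a positive log2 change, as did 7154 of the 9932 genes tested. The median of the list was 0.96, or 0.74 after scaling, against 0.25 and 0.05 for all genes. At an unadjusted p under 0.05, 1 was higher and 0 lower, against 9.04% and 1.15% of all genes. The lipid carrier gene Apom was at 12.6, 0.596, 0.728, 19.3 and 93.3 FPKM in the homozygous layers, against 2.47, 0.177, 1.31, 0, 7.38 and 0.304 FPKM in the heterozygous ones (2.03, limma adjusted p = 0.484). Rbp4, the retinol carrier, was at 3.43, 0.167, 0.409, 15.7 and 67.5 FPKM, against 0.638, 1.58, 1.46, 0, 2.75 and 0.678 FPKM in the heterozygous layers (1.48, adjusted p = 0.531). Layers 9 and 11 held most of it. In homozygous layers 5 and 7 the summed markers of this tissue were at 0.354 and 0.771 FPKM, below every heterozygous section. In those layers T was at 51.1 and 63.0 FPKM and Eomes at 49.1 and 56.6 FPKM. Whether visceral endoderm in the sections bears on the differences of T and Eomes was not tested.

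Mitochondrially encoded RNA took a smaller share of the homozygous libraries. It made up 3.21, 2.42, 2.47, 2.25 and 2.92% of summed FPKM in homozygous layers 1, 5, 7, 9 and 11, against 4.79, 3.92, 4.61, 5.53, 4.55 and 4.92% in heterozygous layers 1, 3, 5, 7, 9 and 11. The shares averaged 2.66 ± 0.395% in homozygous and 4.72 ± 0.528% in heterozygous sections (SD, n = 5 and 6, exact permutation p = 0.00216, the smallest possible), without overlap. The 12S ribosomal RNA mt-Rnr1 was at 194, 144, 142, 565 and 163 FPKM, against 983, 723, 2026, 2101, 1319 and 318 FPKM in the heterozygous layers. Only homozygous layer 9 and heterozygous layer 11 overlapped. It fell by 2.61 after scaling (limma adjusted p = 0.0205, between 0.0205 and 0.623 over 23 alternatives), with -2.32 and an adjusted p of 0.172 as deposited. The 16S ribosomal RNA mt-Rnr2 was at 1047 to 1905 FPKM in homozygous and 1089 to 5501 FPKM in heterozygous sections, and fell by 1.60 after scaling (adjusted p = 0.0199, between 0.0199 and 0.717), with -1.31 and an adjusted p of 0.247 as deposited. The 13 mitochondrial protein genes all had negative log2 changes, as did 2778 of the 9932 genes tested. The median of these 13 was -0.44, against 0.25 for all genes. In limma 4 of them were lower at an unadjusted p under 0.05, against 1.15% of all genes, and 0 passed, as deposited or after scaling. mt-Nd6, the only one of the 13 without overlap, was at 154 to 223 FPKM in homozygous and 259.7 to 510.3 FPKM in heterozygous sections (-0.76, adjusted p = 0.369). Over all genes tested 10 (0.101%) were lower without overlap. With these genes and Yam1 taken out of the library totals, Hes7, Nkx1-2 and T fell in limma, and no other gene passed. As deposited, T had not passed (limma adjusted p = 0.0925).

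Whether the genotype difference changes along the layers was tested by an interaction of genotype with layer number. None of 9932 genes passed in limma (0.0%), and 543 (5.47%) had an unadjusted p under 0.05. Mixl1 had an interaction of -0.49 per layer number (unadjusted p = 0.00408, adjusted p = 0.815), its gap being largest at layer 1. For Gsc it was -0.34 (unadjusted p = 0.00644) and for Fgf17 0.27 (unadjusted p = 0.0131), both at an adjusted p of 0.815. For T it was 0.04 (unadjusted p = 0.639) and for Hes7 -0.01 (unadjusted p = 0.913).

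The same genotypes were set side by side in mesoderm sections, 5 homozygous and 3 heterozygous. There Hes7 and Nkx1-2 were low in both genotypes. Hes7 averaged 0.0493 FPKM in homozygous and 0.529 FPKM in heterozygous mesoderm, and Nkx1-2 averaged 0.0542 FPKM in homozygous and 0.174 FPKM in heterozygous mesoderm. T averaged 7.82 ± 2.20 FPKM in homozygous and 12.1 ± 8.81 FPKM in heterozygous mesoderm (SD). The difference between the streak and mesoderm changes was -2.74 for Hes7 (unadjusted p = 0.000235), -2.49 for Nkx1-2 (unadjusted p = 0.000211) and -1.22 for T (unadjusted p = 0.0274). In limma over 9527 genes none passed (0.0%), with adjusted p of 0.449, 0.449 and 0.999 for these genes, and 337 (3.54%) had an unadjusted p under 0.05. Eomes averaged 20.8 ± 3.62 FPKM in homozygous and 3.69 ± 2.58 FPKM in heterozygous mesoderm, with a difference between the changes of -0.37 (adjusted p = 0.999). Fgf8 averaged 11.2 ± 7.87 FPKM in homozygous and 1.22 ± 0.403 FPKM in heterozygous mesoderm, with a difference of -0.03 (adjusted p = 0.999). For Sp5 the streak change minus the mesoderm change was -2.05 (unadjusted p = 0.00042, adjusted p = 0.572), with 11.0 FPKM in homozygous and 1.66 FPKM in heterozygous mesoderm. No gene is therefore shown to differ by genotype in streak alone.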

How the data were processed

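RNA-seq values of 24 captured embryo sections were read, of which the 11 streak and 8 mesoderm sections entered fits. The authors deposited 1 gene table per section in FPKM, in the column layout of Cufflinks, with an interval for each value. The submitters' processing notes name CASAVA, TopHat2 2.0.11 and the build mm10, and the tool that made the FPKM values is not given in the sources used here. Values of 69 repeated identifiers were added, giving 46785 genes, and values below 1e-06 FPKM were set to 0. FPKM rescales with the total of a library, so a few abundant RNAs can shift all other genes, and low values are uncertain. The tables used here hold no counts, so no count model was run and depth is unknown.

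Groups came from the labels, which give no date or batch. For 3 sections the title contradicts the cell type label, so they were left out. The 4 posterior samples are not analysed here. The main fit used limma 3.58.1 in R 4.3.3 on log2(FPKM + 1), keeping genes that averaged 1 FPKM or more in the sections fitted. It had terms for genotype and layer number, an intensity trend in the prior variance, two-sided p-values and BH adjustment over all genes at a threshold of 0.05. Log2 changes are Evx1as-/- minus Evx1as+/- on the log2(FPKM + 1) scale, which understates changes of low genes. Interaction fits added genotype by layer, or genotype by region over 19 sections. Exact permutation tests went through all relabellings of the sections, with numpy 2.4.6. The fits were tested on simulated data.

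Genes named are Evx1as, Evx1 and T, every gene past the threshold as deposited or after scaling, the 10 largest changes each way at an unadjusted p under 0.01 without overlap and averaging 5 FPKM or more in the higher group, up to 4 members of each of 28 lists with the smallest p, and further members of the developmental lists. The lists and the sections compared were chosen with earlier results of these data known. Alternatives were 2 other scalings, a pseudocount of 0.1, no filter, a filter at 5 FPKM, layer as a block or left out, layers 5 to 11 alone, a robust prior, the conflicting sections added, and each section left out in turn.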

Additional observations from a re-analysis of the deposited data

Results flagged for a closer look

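Within a genotype, 18 of 128 groups of values held a section far from the others, where chance gives about 1 in 20. Layer 1 accounts for many of them. In the homozygous group, layer 1 stood apart by low values of Dll1 (0.0438 FPKM), Mesp1 (0.427 FPKM) and Mesp2 (0.344 FPKM), and by high values of Lhx1 (90.2 FPKM) and Hes1 (17.7 FPKM). In the heterozygous group, layer 1 stood apart by a low value of Cdx1 (0.678 FPKM) and by high values of Foxa2 (68.7 FPKM), Hes1 (21.2 FPKM), Cxcl12 (1.69 FPKM) and Gsc (0.712 FPKM).

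Layer 11 stood apart by low values of Eomes (20.2 FPKM) and Nodal (2.09 FPKM) in the homozygous group. In the heterozygous group it was low for Eomes (2.73 FPKM), Otx2 (0.357 FPKM), Trh (0.837 FPKM) and mt-Rnr2 (1089 FPKM), and high for mt-Nd6 (510.3 FPKM). Homozygous layer 9 was high for mt-Rnr1 (565 FPKM).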

How the results depend on the processing

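Genes lower as deposited numbered 2. They numbered 8 after median-ratio scaling, 4 with the conflicting sections added by title, 3 after rescaling without Yam1 and the mitochondrially encoded genes (Hes7, Nkx1-2 and T), 3 with layers 5 to 11 alone (Hes7, Hoxb1 and Hoxb2), and 1 with a pseudocount of 0.1 or no layer term. They numbered 0 with no filter, with at least 5 FPKM, or when those sections were added by their cell type label. With layer as a replicate block 0 genes were lower and 0 higher, also after scaling, an alternative chosen after seeing the data. The layer numbers share only a position: deviations of same-numbered sections correlated at 0.476, 0.0337, 0.0195, 0.0531 and 0.0691 for layers 1, 5, 7, 9 and 11, and only layers 1 and 11 matched their own number best. Genes higher numbered 0 as deposited and 1, Taf9, with layers 5 to 11 alone. Leaving out 1 section gave 0 to 6 lower genes (6 without heterozygous layer 11) and 0 to 4 higher ones (4 without homozygous layer 9). For genotype by region the counts were 1 higher with no filter and 1 lower after scaling, and 0 to 0 and 0 to 1 without 1 section. For genotype by layer they were 0 to 1 and 0 to 0.

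After scaling, 1 of 18 genes tested was lower in the streak list, 3 of 15 in the caudal list and 1 of 18 in the WNT list. In the HOX list 2 of 2 were lower, and in the retinoic acid list 1 of 5. These lists share genes: T is in the streak and WNT lists, and Hoxb1 and Hoxb2 are in the caudal and HOX lists. Over all 9932 genes tested 8 (0.0805%) were lower. Without 1 section, the log2 differences were -0.96 to -0.46 for Evx1as, -0.82 to -0.16 for Evx1 and -1.90 to -1.64 for T. Mitochondrial share differed by -2.23 to -1.90 percentage points, Yam1 share by -6.03 to -2.51 and genes at 1 FPKM by 226.6 to 1057.2. Summed FPKM differed by -12193.6 to 22463.1, negative without heterozygous layer 11 (-12193.6) or homozygous layer 9 (-11149.9). The log2 change of Sp5, at -0.08, was 0.0131 with layers 5 to 11 alone, 0.365 with those sections added by label, and between -0.261 and 0.0398 without 1 section. That of Mesp1, at 0.56, was between -0.244 (without heterozygous layer 11) and 1.47. The cause of these shifts was not tested. Unknown depth limits the genes near 0.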
